A study of Mus musculus with 10 samples.

Results

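This account follows 44 mouse genes of the interferon response and of antigen presentation in pancreatic islets after a western diet. The genes were chosen by symbol: MHC class I and class II chains, the proteins that load them, and genes that interferons induce. All 44 were found among the 27665 genes of the deposited table, and 43 had enough counts to be tested. Bst2 was the 1 member that rose on western diet and Irf1 was the 1 member that fell.

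Interferons are secreted proteins that warn cells of viral infection. They bind receptors at the cell surface and act through JAK kinases, STAT factors and interferon regulatory factors to switch on a shared set of genes, the interferon-stimulated genes. MHC class I molecules show peptides from inside the cell to cytotoxic T cells and are made by nearly all nucleated cells, whereas class II molecules are made mainly by professional antigen-presenting cells such as macrophages, dendritic cells and B cells. In the pancreatic islet, an endocrine cluster made mostly of insulin-secreting beta cells, high class I expression and interferon-stimulated genes are known from autoimmune diabetes.

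RNA was sequenced from islets of male C57BL/6J mice, an inbred strain, which were 8 to 10 weeks old when given either diet for 4 weeks, and islets were processed as soon as they had been isolated. The western diet group held 5 mice, 4 from cage 4 and 1 from cage 2, and the standard chow group held 5 mice, all from cage 3. Diet and cage therefore cannot be told apart. Each library is 1 mouse and is called here by its cage and mouse number, so that c4m1 is mouse 1 of cage 4.

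Total counts ranged from 16532518 to 23902681 per library, of which the 44 members together took between 0.150% and 0.187%. Beta cell markers summed to 238117 to 272908 CPM (counts scaled to library size) on western diet and to 228432 to 264341 CPM on chow, and these ranges overlapped. Acinar markers, from exocrine tissue around the islets, ran from 896 to 6547 CPM on western diet and from 770 to 3203 CPM on chow. Endothelial markers summed to 391 ± 27.6 CPM on western diet and 423 ± 24.7 CPM on chow (SD, n = 5 each; two-sided exact permutation p = 0.0238, 0.143 adjusted over the marker lists). The part of these tissues in the members' values was not tested beyond the acinar covariate. Leukocyte transcripts stood apart in a few libraries. The 7 B cell markers summed to 197, 12.5, 78.7, 9.56 and 12.7 CPM in western diet mice c4m1, c4m2, c4m5, c4m4 and c2m5, against 14.5, 8.13, 14.1, 11.8 and 54.8 CPM in chow mice c3m1 to c3m5. In whole-islet RNA, fewer cells of a type and less RNA per cell cannot be told apart.

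Many interferon-stimulated genes carry an interferon-stimulated response element (ISRE), bound by interferon regulatory factors, or a gamma-activated sequence (GAS), named for genes that interferon gamma induces. RefSeq promoter windows of GRCm38.p6, from 250 bases before to 50 bases after a start site, were at hand for 31 of the 44 members, in 36 windows. The members with no window in that table were Cd74, Ciita, Dhx58, H2-Ab1, Ifi27, Mx1, Mx2, Nlrc5, Parp14, Rtp4, Tap2, Usp18 and Zbp1. The ISRE was searched as GAAANNGAAA or TTTCNNTTTC, the GAS as TTCNNNGAA, which reads the same on both strands, and the Y box of MHC promoters as CCAAT or ATTGG. An ISRE match was present in 16 of the 36 member windows (44.4%), against 3.44% of all 32851 windows. A GAS match was present in 22.2% of member windows, against 8.30% of all, and a Y box match in 47.2%, against 37.4%. A match describes letters and is no evidence of binding, and the lack of a match is no evidence that the element is absent.

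The 250 bases before the start of the 2 members that differed between diets are shown first, 5′ to 3′ on the gene's strand. Capitals mark the ISRE matches in Bst2 (chr8:71537473-71537722, minus strand), where 2 matches overlap and a GAS match overlaps their 5′ end. Capitals mark the GAS match in Irf1 (chr11:53769764-53770013, plus strand), where this window held no ISRE match.
Bst2: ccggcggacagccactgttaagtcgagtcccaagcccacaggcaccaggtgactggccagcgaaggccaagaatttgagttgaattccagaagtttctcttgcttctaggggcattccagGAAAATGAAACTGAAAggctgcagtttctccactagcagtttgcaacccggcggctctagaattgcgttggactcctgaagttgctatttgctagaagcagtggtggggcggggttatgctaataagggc
Irf1: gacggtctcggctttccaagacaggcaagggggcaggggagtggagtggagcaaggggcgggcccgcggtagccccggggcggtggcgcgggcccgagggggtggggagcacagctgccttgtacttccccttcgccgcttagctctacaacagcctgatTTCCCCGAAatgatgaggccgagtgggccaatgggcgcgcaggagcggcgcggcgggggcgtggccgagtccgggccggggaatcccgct

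The same ISRE letters stood upstream of members whose level did not pass the test, and 5 of them are shown for comparison with Bst2, again with the ISRE in capitals. They are B2m (chr2:122147533-122147572, plus strand), Ifit1 (chr19:34640770-34640809, plus strand), Isg15 (chr4:156200866-156200905, minus strand), Gbp3 (chr3:142559984-142560023, plus strand) and Socs1 (chr16:10785589-10785628, minus strand).
B2m: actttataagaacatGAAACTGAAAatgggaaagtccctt
Ifit1: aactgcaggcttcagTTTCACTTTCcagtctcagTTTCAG
Isg15: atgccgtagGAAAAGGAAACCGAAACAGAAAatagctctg
Gbp3: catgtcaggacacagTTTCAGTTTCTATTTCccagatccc
Socs1: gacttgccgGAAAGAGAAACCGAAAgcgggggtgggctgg
Bst2 and B2m share the run GAAACTGAAA, and in Bst2 a further ISRE match, GAAAATGAAA, overlaps its start. The capitals at the end of the Ifit1 stretch are the start of another match further along.

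The diets were compared on the deposited read counts with edgeR's quasi-likelihood test, with p-values adjusted by Benjamini-Hochberg over all 15104 genes tested and a gene was called where this fell under 0.05. Every fold change sets western diet over chow. Of the 43 tested members, 1 was called higher and 1 lower, which is 2.33% in each direction. Over all tested genes, 5.27% were called higher and 5.5% lower. The members' shares rest on 1 gene in each direction, so their distance from the background is not read as a result. Of the 43 tested members, 27 had a mean of at least 5 CPM, and calls are harder to reach at lower counts. Diets were apart, with no library of one inside the range of the other, in 1 member that was higher on western diet and 1 that was lower, where 4.44% and 4.42% of all tested genes were apart in those directions. At an unadjusted p under 0.05 there were 6 members (14.0%), against 26.9% of all tested genes. The members' log2 fold changes had a median of 0.11 and ran from -0.47 to 1.02, with 28 above 0 and 15 below, and the median over all tested genes was 0.01. The members' median was 0.0238 at a mean of at least 5 CPM and 0.04 without western diet c4m1. For 19 members the 95% interval of the log2 fold change lay within 0.5 of 0, and for 8 within 0.25. In the authors' deposited table, whose p-values are its own, 1 member was likewise higher at an adjusted p under 0.05, Bst2 at a log2 fold change of 0.65, and 1 lower, Irf1 at -0.47.

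**Figure D1:**
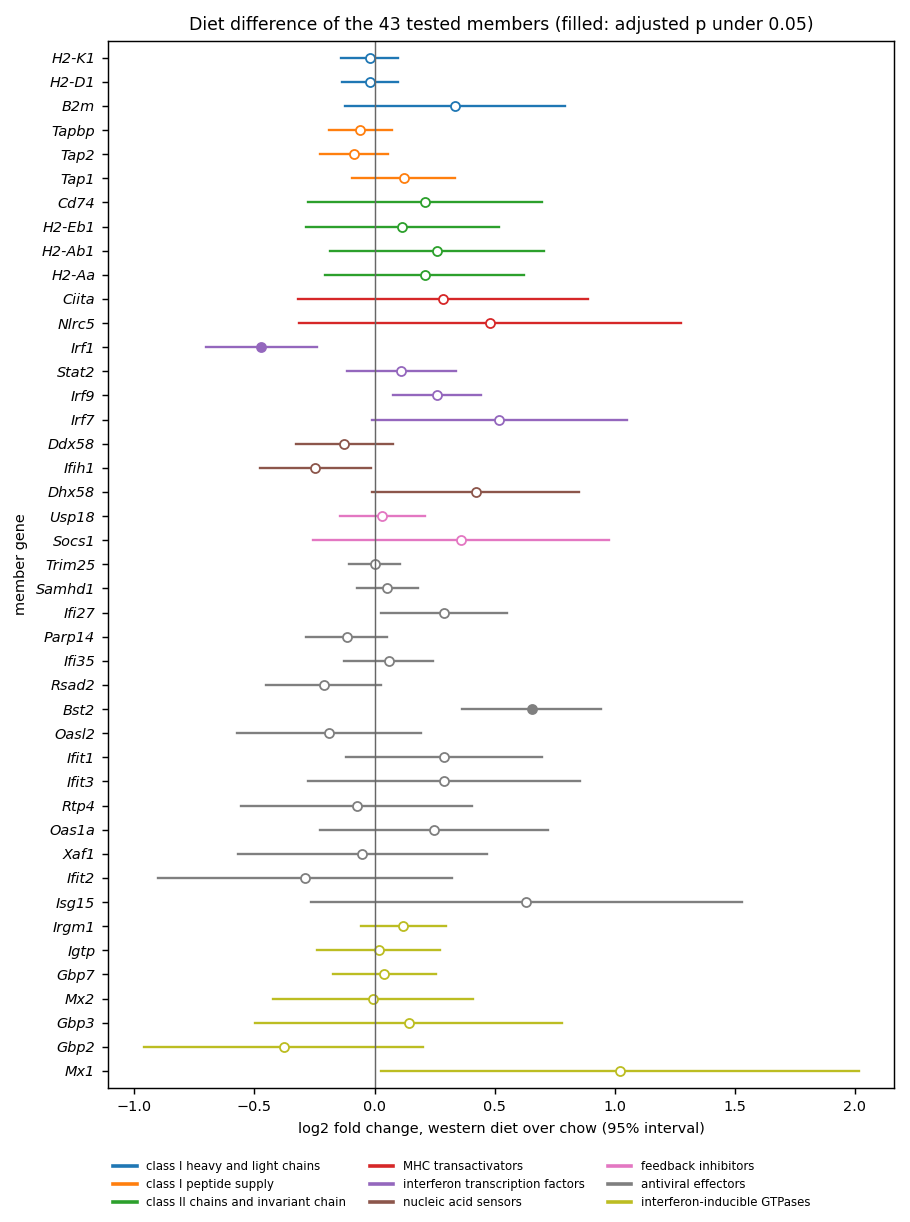
Log2 fold change of western diet over chow (horizontal axis) for each of the 43 tested members (vertical axis, grouped by role and coloured by it). Points are edgeR estimates and lines their 95% intervals from 5 mice per diet; the filled points are Bst2 at 0.65 and Irf1 at -0.47, and the narrowest intervals belong to abundant genes such as Trim25 and H2-K1.

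Compared per length, as the authors' deposited FPKM (a read level scaled to gene length and library size), the members spanned a wide range in islets. Averaged over all 10 libraries, the class I heavy chains H2-K1 at 176 FPKM and H2-D1 at 135 FPKM stood highest. The invariant chain Cd74 followed at 67.0 FPKM, the class I light chain B2m at 66.1 FPKM and the loading factor Tapbp at 38.5 FPKM. Next came the class II chains H2-Eb1 at 34.3, H2-Ab1 at 24.6 and H2-Aa at 19.7 FPKM, then Ifi27 at 15.9, Trim25 at 15.6 and Irf1 at 13.9 FPKM. Thus 8 of the 11 members with at least 10 FPKM serve antigen presentation. Levels differed among the interferon-stimulated genes: Ifi27 had the 15.9 FPKM given above, whereas Ifit1 averaged 1.54 FPKM, Isg15 0.84 FPKM and Mx1 0.16 FPKM. In all, 14 members lay under 1 FPKM.

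The first step of the pathway could barely be read. Of 18 interferon ligand genes looked for, Ifng and Ifnk were found, with 2 counts of Ifng over the western diet libraries and 3 over the chow libraries, and 0 and 2 counts of Ifnk, and neither was tested. The other ligand genes were not analysed here. Among 18 genes of the receptors and their signalling, all tested, 0 were called, where 5.27% of all tested genes rose and 5.5% fell. An unadjusted p under 0.05 was found for 5 of the 18 (27.8%), against 26.9% of all tested genes. The nearest were Irf2, a repressor of Irf1 targets, with a log2 fold change of -0.23 (SE 0.08, adjusted p = 0.0608, edgeR), the kinase gene Tyk2 with 0.25 (SE 0.08, adjusted p = 0.0658, edgeR) and the receptor gene Ifnar1 with 0.14 (SE 0.05, adjusted p = 0.0935, edgeR).

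Of the sensors that detect viral nucleic acids in the cell, none of 3 tested passed. Ifih1, which encodes MDA5, a sensor of long double-stranded RNA, had 12.2, 15.5, 13.4, 13.5 and 16.2 CPM on western diet (c4m1, c4m2, c4m5, c4m4 and c2m5, the order used from here), against 18.6, 18.4, 12.6, 15.8 and 18.4 CPM on chow (c3m1 to c3m5). The groups overlapped: chow mouse c3m3 lay among the lowest western diet mice. The log2 fold change was -0.25 (SE 0.11, adjusted p = 0.155, edgeR), and over 20 alternatives the adjusted p ran from 0.0461, without chow c3m3, to 0.668, without the 3 libraries rich in B cell transcripts, where the log2 fold change was -0.12. Ddx58, which encodes the sensor RIG-I, averaged 16.4 ± 1.47 CPM on western diet and 17.9 ± 2.41 CPM on chow (SD, n = 5 each; log2 fold change -0.13). Dhx58, which encodes LGP2, a regulator of both sensors, averaged 3.42 ± 0.898 CPM on western diet and 2.57 ± 0.481 CPM on chow (SD, n = 5 each; log2 fold change 0.42, adjusted p = 0.196, edgeR). Zbp1, a sensor of Z-form nucleic acid, had 5, 2, 12, 4 and 9 counts on western diet and 0, 0, 1, 5 and 12 counts on chow, too few to be tested. Among 15 other tested genes of nucleic acid sensing, 0 were called, where 5.27% of all tested genes rose and 5.5% fell. An unadjusted p under 0.05 was found for 2 of the 15 (13.3%), against 26.9% of all tested genes. Trim56 was nearest at a log2 fold change of -0.15 (adjusted p = 0.077, edgeR).

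Irf1 was the member that fell. It encodes a transcription factor that interferon gamma and other cytokines induce quickly and that drives class I genes. It had 49.9, 47.8, 39.3, 51.1 and 43.04 CPM on western diet, against 58.4, 73.4, 58.8, 76.7 and 53.6 CPM on chow. All western diet mice lay below all chow mice, with the nearest pair western diet c4m4 and chow c3m5. The means were 46.2 ± 4.95 CPM on western diet and 64.2 ± 10.2 CPM on chow (SD, n = 5 each), and the log2 fold change was -0.47 (SE 0.11, adjusted p = 0.0155, edgeR), a ratio of 0.721 with a 95% interval of 0.614 to 0.846. Irf1 lies on chromosome 11 at 53770014 to 53778374, and Gm17334 on the other strand overlaps it with a mean of 18.2 counts beside 1073 for Irf1. With the western diet mouse of cage 2 left out, so that each diet is 1 cage, the log2 fold change was -0.45 (adjusted p = 0.0334, edgeR). With no filter on low counts the adjusted p of Irf1 was 0.0525.

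Early response genes, which cells switch on within minutes of a stimulus, and heat shock genes were also lower on western diet. Of 15 such genes listed, among them Fos, Jun, Egr1 and Hspa1a, 14 were called lower, 14 were apart with western diet lower, and 0 were higher. Of all tested genes, 5.5% were called lower and 4.42% were apart with western diet lower. Their summed level was 11231 ± 965 CPM on western diet and 19669 ± 1812 CPM on chow (SD, n = 5 each). The ranges were 10046 to 12344 and 17666 to 21839 CPM. The two-sided exact permutation p was 0.00794, the smallest this design can give, and 0.0952 adjusted over the marker lists. This list was chosen with earlier results of these data known, so that p-value is no independent test. Their part in the Irf1 result was not tested.

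The other interferon transcription factors had log2 fold changes above 0 and none passed. Irf9, the DNA-binding part of the complex that type I interferon activates, had 20.2, 19.4, 21.0, 22.1 and 20.7 CPM on western diet, against 14.8, 17.1, 16.3, 21.1 and 17.0 CPM on chow. Chow mouse c3m4 lay inside the western diet range and the other 4 chow mice lay below it. The log2 fold change was 0.26 (SE 0.09, adjusted p = 0.0616, edgeR), which fell under the threshold in 4 of 20 alternatives, such as with DESeq2 (adjusted p = 0.0485), and whose adjusted p ran from 0.0153, without chow c3m4, to 0.227. Rnf31 overlaps Irf9 on the same strand, with a mean of 739 counts beside 370 for Irf9, so their reads may be shared. Irf7, which amplifies type I interferon production, averaged 5.26 ± 1.44 CPM on western diet and 3.64 ± 1.29 CPM on chow (SD, n = 5 each; log2 fold change 0.52, SE 0.25, adjusted p = 0.195, edgeR). Phrf1 overlaps Irf7 on the other strand with a mean of 1114 counts, beside 86.4 for Irf7. Stat2, the partner of IRF9, averaged 20.8 ± 3.93 CPM on western diet and 19.2 ± 1.41 CPM on chow (SD, n = 5 each; log2 fold change 0.11, adjusted p = 0.538, edgeR).

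The feedback inhibitors did not differ beyond their spread. Usp18, which removes ISG15 from proteins and blocks the type I receptor, had 16.7 ± 0.819 CPM on western diet and 16.4 ± 1.68 CPM on chow (SD, n = 5 each), a ratio of 1.02 with a 95% interval of 0.905 to 1.16. Socs1, an inhibitor of JAK kinases, had 3.24, 1.71, 1.94, 1.88 and 2.05 CPM on western diet, against 0.792, 1.40, 1.31, 2.09 and 2.79 CPM on chow. The groups overlapped, and the log2 fold change was 0.36 (SE 0.29, adjusted p = 0.462, edgeR).

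**Figure D2:**
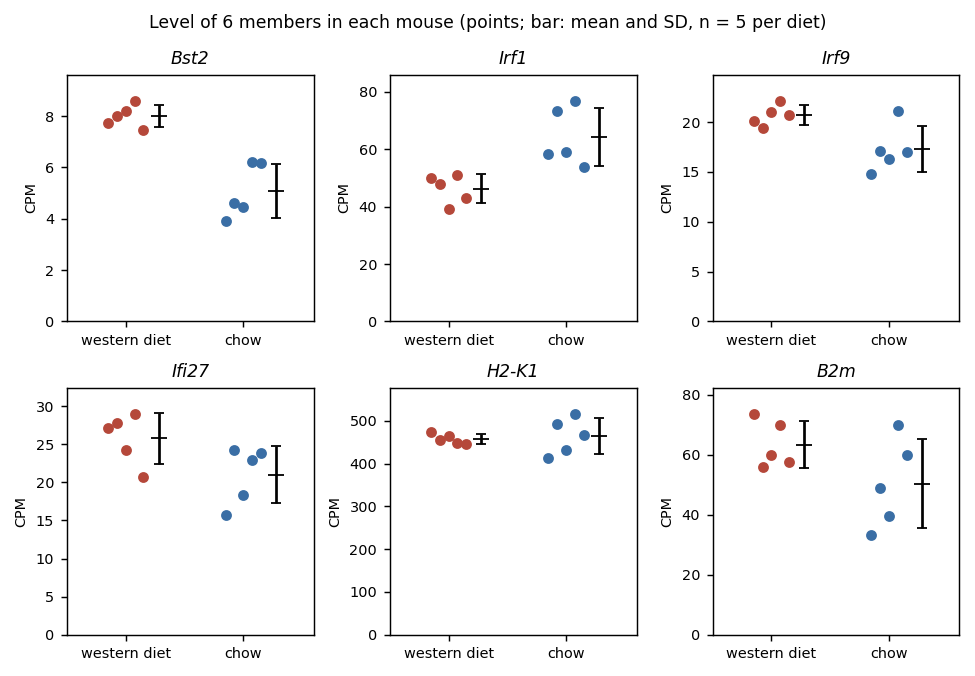
Level in CPM (vertical axes, from 0) of 6 members in each mouse, western diet in red at left and chow in blue at right, with the mean and SD of 5 mice beside the points. Bst2 is higher in every western diet mouse than in any chow mouse and Irf1 lower, while the groups overlap for Irf9, Ifi27, H2-K1 and B2m; the chow points of H2-K1 run from 412 to 515 CPM and the western diet points from 445 to 473 CPM.

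Among 15 antiviral effectors, all tested, 1 rose (6.67%) and 0 fell, where 5.27% of all tested genes rose and 5.5% fell. Bst2, which encodes tetherin, a membrane protein that holds budding virions on the cell surface, had 7.75, 8.02, 8.18, 8.59 and 7.45 CPM on western diet, against 3.91, 4.60, 4.46, 6.201 and 6.18 CPM on chow. Every western diet mouse lay above every chow mouse, and chow mice c3m4 and c3m5 stood nearest to western diet. The means were 8.00 ± 0.432 CPM on western diet and 5.07 ± 1.06 CPM on chow (SD, n = 5 each), a log2 fold change of 0.65 (SE 0.14, adjusted p = 0.00651, edgeR) and a ratio of 1.57 with a 95% interval of 1.29 to 1.92. These values rest on 135 to 178 reads per western diet library and 74 to 146 per chow library. Bst2 lies on chromosome 8 at 71534255 to 71537456, and no other gene of the table overlaps it. It was called in all 20 alternatives tried, at adjusted p from 0.000472 to 0.0301. Without the 3 libraries rich in B cell transcripts its log2 fold change was 0.75 (adjusted p = 0.0277, edgeR), and with 1 cage per diet it was 0.68 (adjusted p = 0.0075, edgeR).

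Ifi27, a small membrane protein gene that interferon alpha induces, was the next effector by p. It had 27.2, 27.8, 24.3, 28.9 and 20.7 CPM on western diet, against 15.7, 24.2, 18.4, 22.96 and 23.8 CPM on chow. The western diet mouse of cage 2 lay among the chow mice. The log2 fold change was 0.29 (SE 0.12, adjusted p = 0.142, edgeR), and over 20 alternatives the adjusted p ran from 0.0491, without that mouse, to 0.29. Rsad2, which encodes viperin, an enzyme that blocks viral RNA synthesis, averaged 10.7 ± 0.752 CPM on western diet and 12.3 ± 2.19 CPM on chow (SD, n = 5 each; log2 fold change -0.21, adjusted p = 0.239, edgeR).

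Several effectors were scarce. Isg15, a ubiquitin-like protein gene, had 8, 18, 14, 12 and 24 counts on western diet, against 9, 5, 3, 14 and 18 counts on chow (log2 fold change 0.63, SE 0.43, adjusted p = 0.365, edgeR). The groups overlapped and the 95% interval of the log2 fold change ran from -0.27 to 1.53. Ifit1, whose protein binds viral RNA lacking a host-type cap, averaged 4.51 ± 1.47 CPM on western diet and 3.67 ± 0.502 CPM on chow (SD, n = 5 each; log2 fold change 0.29). Its neighbours Ifit3 and Ifit2 had log2 fold changes of 0.29 and -0.29, with means of 2.43 and 1.40 CPM on western diet and 1.99 and 1.68 CPM on chow. Oas1a and Oasl2, of the family that senses double-stranded RNA to start RNA decay, had log2 fold changes of 0.25 and -0.19. Ifit3 and Oas1a have near-identical copies in the mouse genome, so their values are uncertain.

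The remaining effectors did not pass the test. The abundant Trim25, a ubiquitin ligase that helps RIG-I signal, averaged 89.8 ± 0.836 CPM on western diet and 89.7 ± 6.04 CPM on chow (SD, n = 5 each), a ratio of 1.00 with a 95% interval of 0.93 to 1.08. Samhd1, which depletes the nucleotides that viruses need, had a ratio of 1.04 (95% interval 0.95 to 1.13). Ifi35, a regulator of innate signalling, and Parp14, an ADP-ribosyltransferase, had log2 fold changes of 0.06 and -0.12. Xaf1, a binding partner of the caspase inhibitor XIAP, and Rtp4, an RNA-binding inhibitor of viral replication, had log2 fold changes of -0.05 and -0.08.

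Of 48 other antiviral effector genes tested from a wider list, 0 rose and 4 fell (8.33%), where 5.27% of all tested genes rose and 5.5% fell. Rnf213, a giant ubiquitin ligase, averaged 57.2 ± 6.86 CPM on western diet and 75.3 ± 6.30 CPM on chow (SD, n = 5 each; log2 fold change -0.40, SE 0.08, adjusted p = 0.00568, edgeR). Uba7, the enzyme that activates ISG15 for attachment to proteins, averaged 10.4 ± 0.80 CPM on western diet and 13.8 ± 1.62 CPM on chow (SD, n = 5 each; log2 fold change -0.41, SE 0.10, adjusted p = 0.0134, edgeR). Both were apart, with all western diet mice below all chow mice. Slfn9 (log2 fold change -0.92, adjusted p = 0.0285, edgeR) and the helicase gene Ddx60 (log2 fold change -0.49, adjusted p = 0.038, edgeR) also fell, but each lost its call when single libraries were left out, such as Slfn9 without chow c3m2 (adjusted p = 0.0862) and Ddx60 without western diet c4m4 (adjusted p = 0.088). Without the 3 libraries rich in B cell transcripts, where calls over all genes numbered 522 against 1627, Uba7 had a log2 fold change of -0.35 (adjusted p = 0.128). Across all 125 pathway genes tested outside the members, 2 rose and 5 fell, 1.6% and 4%, against the 5.27% and 5.5% of all genes, and their median log2 fold change was 0.00.

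None of the 7 interferon-inducible GTPases passed edgeR's test, where 5.27% of all tested genes rose and 5.5% fell. An unadjusted p under 0.05 was found for 1 of the 7 (14.3%), against 26.9% of all tested genes. Mx1, whose product blocks influenza virus in mice with an intact gene but is defective in C57BL/6, had the largest fold change of the tested members on the fewest reads of them. It had 14, 20, 4, 27 and 15 counts on western diet, against 7, 14, 2, 4 and 13 counts on chow. The groups overlapped, and the log2 fold change of 1.02 (SE 0.47) had an adjusted p of 0.174 (edgeR). Mx2, its neighbour, averaged 2.75 ± 0.349 CPM on western diet and 2.75 ± 0.604 CPM on chow (SD, n = 5 each). The guanylate-binding protein genes, which attack the vacuoles of intracellular microbes, gave log2 fold changes of -0.38 for Gbp2, 0.14 for Gbp3 and 0.04 for Gbp7. The immunity-related GTPase genes Igtp and Irgm1, which act on the same vacuoles, gave 0.02 and 0.12. Guanylate-binding protein genes are a family of close copies, and Irgm2 overlaps Igtp on the same strand with 175 counts beside 182, so their values are uncertain. Of 9 other GTPases of these families tested, edgeR called 0 and 0 had an unadjusted p under 0.05. Of 7 further interferon gamma induced genes tested, edgeR called 0 and 1 (14.3%) had an unadjusted p under 0.05, Gch1 at a log2 fold change of -0.16.

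The class I heavy chains were the most abundant members and their means differed by less than the spread between mice. H2-K1 had 473, 454, 464, 449 and 445 CPM on western diet, against 412, 492, 432, 515 and 467 CPM on chow. All western diet values lay inside the chow range. The means were 457 ± 11.6 CPM on western diet and 464 ± 42.3 CPM on chow (SD, n = 5 each), a ratio of 0.986 with a 95% interval of 0.908 to 1.07 (adjusted p = 0.857, edgeR). H2-D1 averaged 346 ± 9.22 CPM on western diet and 351 ± 31.0 CPM on chow (SD, n = 5 each), a ratio of 0.987 with a 95% interval of 0.910 to 1.07. Because class I genes are close copies, reads may be split between them, so the sum was also taken: H2-K1 and H2-D1 together had 804 ± 18.7 CPM on western diet and 815 ± 73.1 CPM on chow (SD, n = 5 each; two-sided exact permutation p = 0.746).

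B2m, the light chain that all class I molecules share, varied more. It had 73.6, 56.0, 59.96, 69.96 and 57.7 CPM on western diet, against 33.3, 48.9, 39.6, 69.88 and 60.05 CPM on chow. The groups overlapped, with chow c3m1 and c3m3 lowest and chow c3m4 level with western diet c4m4. The log2 fold change was 0.33 (SE 0.20, adjusted p = 0.33, edgeR). The peptide transporter genes Tap1 and Tap2 and the transporter-to-class I bridge Tapbp had log2 fold changes of 0.12, -0.09 and -0.06 and none passed. Their means were 12.9, 26.8 and 124 CPM on western diet and 11.8, 28.4 and 129 CPM on chow. Psmb9 overlaps Tap1 on the other strand with a mean of 142 counts, beside 243 for Tap1.

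Of 20 other class I presentation genes tested, 2 rose (10%) and 0 fell, where 5.27% of all tested genes rose and 5.5% fell. Both encode non-classical class I heavy chains. H2-T23, the ligand of NK cell receptors known as Qa-1, had 59.2, 60.6, 55.8, 61.3 and 53.1 CPM on western diet, against 43.9, 38.5, 42.5, 51.4 and 50.8 CPM on chow. The groups did not overlap, and the log2 fold change was 0.35 (SE 0.07, adjusted p = 0.00627, edgeR). H2-T22, which gamma delta T cells recognise, averaged 40.8 ± 4.46 CPM on western diet and 32.9 ± 3.29 CPM on chow (SD, n = 5 each; log2 fold change 0.31, SE 0.08, adjusted p = 0.019, edgeR). H2-T22 lost its call without western diet c4m1 (adjusted p = 0.0519), chow c3m1 (0.0588) or chow c3m3 (0.0556), and without the 3 libraries rich in B cell transcripts (0.228, at a log2 fold change of 0.21). These neighbours on chromosome 17 are close copies, so reads may be split between them. H2-Q4, of the same class, had 32.1 ± 2.34 CPM on western diet and 37.6 ± 4.13 CPM on chow (SD, n = 5 each; log2 fold change -0.23, adjusted p = 0.0579, edgeR).

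The class II genes were highest in a single mouse. H2-Ab1, the beta chain of I-A, had 61.4, 40.6, 41.2, 36.3 and 39.9 CPM on western diet, against 27.7, 32.6, 31.4, 43.8 and 47.7 CPM on chow. Western diet mouse c4m1 stood above all others, chow mice c3m4 and c3m5 came next, and the groups overlapped. The log2 fold changes were 0.26 for H2-Ab1, 0.21 for the alpha chain H2-Aa, 0.12 for H2-Eb1 and 0.21 for the invariant chain Cd74, with adjusted p of 0.442, 0.513, 0.732 and 0.58 (edgeR). H2-Eb1 encodes the beta chain of I-E, which C57BL/6 mice do not display because they lack its alpha chain. Summed, the 4 genes had 329, 213, 193, 181 and 219 CPM on western diet, against 169, 166, 175, 241 and 237 CPM on chow. The means were 227 ± 59.2 CPM on western diet and 198 ± 38.0 CPM on chow (SD, n = 5 each; two-sided exact permutation p = 0.429). Without c4m1 the western diet mean was 201 ± 17.4 CPM (SD, n = 4).

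**Figure D3:**
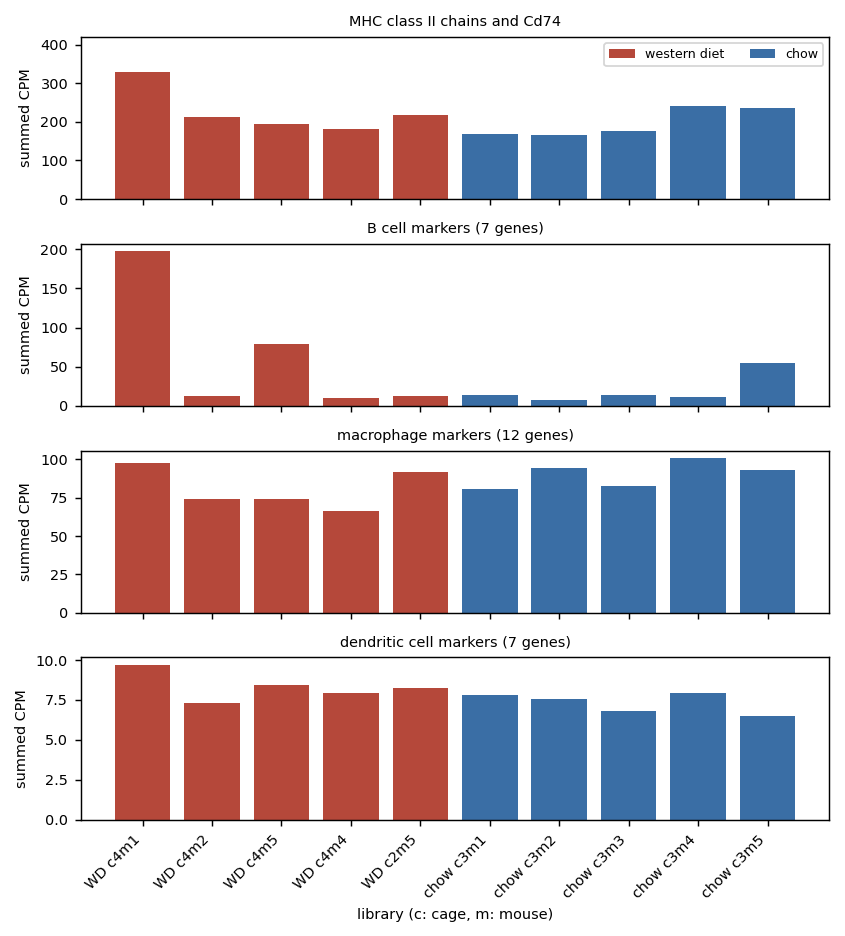
Summed CPM in each library (bars from 0; western diet in red at left, chow in blue at right) of the 4 class II genes and of B cell, macrophage and dendritic cell markers. Western diet c4m1 has the highest class II sum (329 CPM) and the highest B cell sum (197 CPM); chow c3m4 has a class II sum of 241 CPM at a B cell sum of 11.8 CPM.

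Markers of the cells that normally make class II differed in which libraries they marked. The B cell sum was highest in western diet c4m1, western diet c4m5 and chow c3m5, at 197, 78.7 and 54.8 CPM, and mostly came from the immunoglobulin genes Ighm and Igkc. Ms4a1 was at 0 in the other 7 libraries. Of these 3 mice, western diet c4m5 and chow c3m5 had class II sums of 193 and 237 CPM, inside the range of the other 7 libraries. Western diet c4m1 lay above that range at 329 CPM. T and NK cell markers summed to 9.91 CPM in western diet c4m1 and 2.33 CPM in chow c3m5 and to under 1 CPM elsewhere. Macrophage markers summed to 66.2 to 97.4 CPM on western diet and 81.0 to 101 CPM on chow (two-sided exact permutation p = 0.19, 0.457 adjusted over the marker lists). Of 11 macrophage markers tested, 6 had log2 fold changes above 0 and 5 below, with a median of 0.01. The 1 of them that was called, C1qa, fell (log2 fold change -0.51, adjusted p = 0.000707, edgeR). Dendritic cell markers summed to 7.28 to 9.68 CPM on western diet and 6.52 to 7.93 CPM on chow (two-sided exact permutation p = 0.0714, 0.286 adjusted over the marker lists). Only 3 of the 7 dendritic cell markers had enough counts to be tested singly. The part of these cells in the class II values was not tested.

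The master regulators of the MHC genes were scarce. Ciita, the transactivator of class II, averaged 1.79 ± 0.685 CPM on western diet and 1.47 ± 0.436 CPM on chow (SD, n = 5 each; log2 fold change 0.29, adjusted p = 0.566, edgeR), and Dexi overlaps it on the other strand with a mean of 393 counts beside 31.7. Nlrc5, the transactivator of class I, had 40, 19, 16, 25 and 37 counts on western diet, against 3, 25, 15, 26 and 27 counts on chow (log2 fold change 0.48, SE 0.38, adjusted p = 0.443, edgeR). Chow c3m1 stood apart at the low end for Nlrc5, and the groups overlapped. Among 8 other class II presentation genes tested, 0 rose and 1 fell (12.5%), where 5.27% of all tested genes rose and 5.5% fell. Rfx5, a subunit of the factor that binds class II promoters, averaged 24.3 ± 2.80 CPM on western diet and 29.3 ± 2.74 CPM on chow (SD, n = 5 each; log2 fold change -0.27, SE 0.08, adjusted p = 0.0468, edgeR), a call that was lost in 11 alternatives, such as without western diet c4m1 (adjusted p = 0.112).

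Most members varied with the mean of the others between mice of the same diet, but the members did not vary as 1 group. After the diet means were removed from log2(CPM + 1), 39 of 43 tested members had a Pearson r above 0 with the mean of the other members over the 10 libraries. B2m and Gbp3 reached 0.88 and Bst2 reached 0.83, while Usp18 lay lowest at -0.55. Single pairs went both ways: r was 0.98 for H2-Aa with H2-Eb1, but -0.69 for Rsad2 with H2-Eb1 and -0.82 for Usp18 with Tap1. These values are a description, since all members share each library's scaling and cell makeup. The same measure was not taken over all tested genes. The common part lay mostly on chow: the members' mean deviation was -0.14 and -0.15 in chow c3m1 and c3m3 and 0.16 and 0.12 in chow c3m4 and c3m5, whereas western diet mice ran from -0.08 to 0.05. The coefficient of variation (SD over mean) was wider on chow in 30 of 43 members (69.8%), against 49.95% of all tested genes. Its median over the members was 12.7% on western diet and 17.9% on chow, and over all tested genes 10.1% on western diet and 10.3% on chow. Among members of at least 5 CPM it was wider on chow in 21 of 27 (77.8%), against 51.2% of all tested genes of that level. Stromal markers were highest in chow c3m4, at 238 CPM against 120 to 153 CPM on western diet and 122 to 141 CPM in the other chow mice, and B cell markers were highest among chow mice in c3m5. Their part in this spread was not tested, and chow held 1 cage. The counts of members wider on chow rest on the same 5 mice per diet, and members that vary together are not independent.

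**Figure D4:**
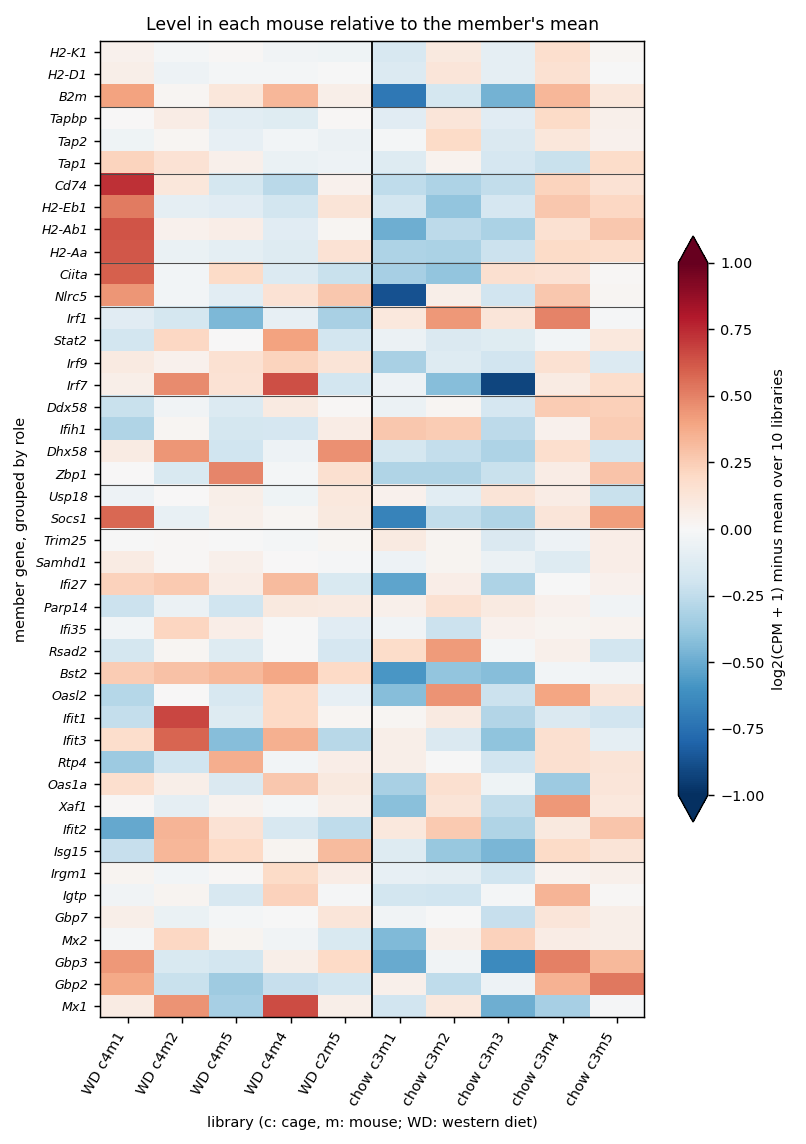
Level of each member (rows, grouped by role) in each library (columns; western diet c4m1 to c2m5 at left, chow c3m1 to c3m5 at right), as log2(CPM + 1) minus the member's mean over 10 libraries. Red is above the mean and blue below; chow c3m1 and c3m3 are mostly blue and chow c3m4 and c3m5 mostly red, and the class II rows are darkest in western diet c4m1.

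Of the 16 members with an ISRE match in a promoter window, all tested, 1 rose (Bst2) and 0 fell, where 5.27% of all tested genes rose and 5.5% fell. Their log2 fold changes had a median of 0.13 and ran from -0.38 for Gbp2 to 0.65 for Bst2. Of the 15 members with a window but no ISRE match, 0 rose and 1 fell (Irf1), with a median of 0.00 and a range of -0.47 to 0.52. Whether these sets differ was not tested, and a window without a match to these letters may still hold a looser form of the element.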

How the data were processed

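The authors deposited 1 table of 27665 genes with raw read counts, normalized values and FPKM for 10 mouse islet libraries. It also holds the authors' log2 fold changes and p-values. The submitters' processing notes name STAR 2.5, HTSeq 2 and DESeq2, with the builds GRCm38 and mm10. The order of steps and the strand setting are not given in the sources used here. For that reason, reads of overlapping or antisense genes cannot be told apart, and 15 members overlap another gene of the table. The 10 columns of normalized values were not used. Total counts per library limit the precision, and each spread between mice includes counting error.

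Counts were tested in R 4.3.3 with edgeR 4.0.16. The filter was filterByExpr at its minimum count of 10 (15104 genes kept). Libraries were scaled with TMM factors and fitted with a robust quasi-likelihood model without covariates. Each SE is the absolute log2 fold change over the square root of F, and intervals cover 95%. CPM use the TMM-scaled library sizes. Marker sums were compared by two-sided exact permutation tests. Alternatives were upper quartile and RLE factors, no filter, a mean of at least 5 CPM, no robust moderation, an acinar marker covariate, mouse number as a block, DESeq2 1.42.0, limma-voom (limma 3.58.1) and each mouse left out. The fit without the 3 libraries rich in B cell transcripts (western diet c4m1 and c4m5, chow c3m5) was chosen after seeing the data. Any member could be named. Pathway genes were named when called or among the 3 smallest p of their list, and C1qa, Ms4a1, Ighm and Igkc were chosen after their values were seen. The members and all lists were chosen with earlier results of these data known.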

Additional observations from a re-analysis of the deposited data

Results flagged for a closer look

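A library far from the others of its diet was looked for in 110 sets of 5 values, and 11 were found; among the members there were 4 in 88. Chance alone gives about 1 in 20. Western diet c4m1 stood above the other western diet mice in 3 members. It had 61.44 CPM of H2-Ab1 with the next mouse at 41.23 CPM, 2.583 CPM of Gbp2 with the next at 1.423 CPM, and 3.241 CPM of Socs1 with the next at 2.051 CPM. The same library had the highest leukocyte marker sum, 65.06 CPM with the next western diet mouse at 29.1 CPM, and the highest T and NK cell sum, 9.911 CPM with the next at 0.9094 CPM. Chow c3m4 had 3.399 CPM of Dhx58 with the next chow mouse at 2.482 CPM. It also had the highest chow sums of endothelial markers, 465.7 CPM with the next at 421.4 CPM, and of stellate and stromal markers, 238.4 CPM with the next at 140.6 CPM. Chow c3m5 stood apart in B cell markers, 54.8 CPM with the next chow mouse at 14.52 CPM, and in T and NK cell markers, 2.329 CPM with the next at 0.5963 CPM. Western diet c4m5 had the lowest endothelial sum of its diet, 342 CPM with the next at 397.2 CPM.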

How the results depend on the processing

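Over 20 alternatives, 837 of 844 member values kept their side of the threshold, 1 lost its call (Irf1 with no filter), 6 gained one (Irf9 4 times, Ifi27 and Ifih1 once each) and 0 called values changed sign; uncalled members changed sign 41 times. Members called higher numbered 2 with the acinar covariate, with DESeq2 and with limma-voom, and 1 to 2 with single mice left out (2 without western diet c2m5 or chow c3m4). Members called lower numbered 0 with no filter and 1 to 2 with single mice left out (2 without chow c3m3). The members' median log2 fold change was 0.0238 at a mean of at least 5 CPM, where fewer genes are tested, and 0.04 to 0.15 with single mice left out, 0.04 without western diet c4m1. With mouse number as a replicate block, 1 member was called higher and 1 lower (Bst2 adjusted p = 0.0301, Irf1 adjusted p = 0.00322, edgeR), and of the pathway genes Rfx5 (0.14) and Slfn9 (0.0956) lost their calls. The numbers did not pair the mice: same-numbered mice correlated at -0.12 to 0.08 in their deviations, and 1 of 5 was most like its own number. Calls over all genes numbered 1627, against 841 with the block and 522 without the 3 libraries rich in B cell transcripts. They numbered 1055 without western diet c4m5, 985 without western diet c4m4, 938 without chow c3m1 and 1050 without chow c3m3. Higher totals also occurred, such as 1813 without western diet c2m5, 1785 with the acinar covariate and 1998 with DESeq2. The background share thus moves with single mice and with the method. Low counts limit Zbp1, which could not be tested.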
